A study of Mus musculus with 8 samples.

Results

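The genes described here are the heat shock proteins, the DnaJ co-chaperones and the numbered disulfide isomerases of mouse liver. They were taken by gene symbol, as every Hspa, Hspb, Hspd, Hspe, Hsp90, Hsph1, Dnaja, Dnajb, Dnajc and Pdia gene that averaged 0.5 FPKM or more across the 8 libraries. FPKM count fragments per kilobase of a transcript and are scaled for library size, so that levels can be compared between genes. The symbols matched 78 of the 22564 genes in the table, of which 61 reached that mean. By the usual site of the protein, 18 of the 61 were put in the endoplasmic reticulum (ER), 29 in the cytosol and nucleus, 8 in the mitochondrion and 6 in vesicles or elsewhere. Livers were compared between 4 mice fed a high-fructose diet (HFrD mice 1, 2, 5 and 7) and 4 mice fed a normal diet (ND mice 1, 3, 6 and 7). HFrD supplied 70% of its energy as carbohydrate, 10% as fat and 20% as protein, and no composition is given for ND in the sources used here. All animals were males of the inbred strain C57BL/6J, bought at 10 to 11 weeks of age, fed for 2 weeks and anesthetized with chloral hydrate before the liver was taken. The study used this feeding as a model of non-alcoholic fatty liver disease and asked how hepatic RNA differs between the diets. Each library was 1 mouse, so that the p values below measure the spread between mice.

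Chaperones of the Hsp70 family bind unfolded stretches of protein in cycles of ATP hydrolysis. J proteins (the DnaJ or Hsp40 family) deliver the clients and start the hydrolysis, and nucleotide exchange factors such as the Hsp110 proteins reset the cycle. Hsp90 proteins act later on partly folded clients, and the Hsp60 and Hsp10 chaperonin folds proteins in a closed chamber inside mitochondria. In the ER of hepatocytes, which secrete most plasma proteins, BiP (Hspa5), Grp94 (Hsp90b1) and the protein disulfide isomerases fold and oxidize secretory proteins. Heat shock factor 1 induces part of the cytosolic set, and the unfolded protein response, through Atf6 and Xbp1, induces part of the ER set.

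The 8 libraries were those of a liver by their markers. Markers are counted as higher or lower by the limma test described below. Over all genes tested, 5.44% were higher and 3.69% lower in HFrD. Alb, the gene of serum albumin, averaged 33791 FPKM in HFrD and 27975 FPKM in ND mice, and 2 of 12 hepatocyte markers (Ttr and Trf) were higher in HFrD and 0 lower. Kupffer cell markers summed to 194 to 285 FPKM in HFrD and 93.0 to 150 FPKM in ND mice, and 9 of 11 were higher in HFrD. Endothelial markers summed to 145 to 162 FPKM in HFrD and 112 to 131 FPKM in ND mice (3 of 12 higher), stellate cell markers to 180 to 195 and 130 to 167 FPKM (1 of 12 higher), and 1 of 5 erythroid markers (Alas2) was lower. No marker of cholangiocytes (3 tested) or of lymphocytes and neutrophils (4 tested) passed the limma test, and 0 of either had an unadjusted p under 0.05. In bulk liver, fewer cells of a type and less RNA per cell cannot be told apart, and the part of these markers in the results below was not tested. The absolute depth is unknown. Relative depth was inferred from the commonest ratio of FPKM between a library and ND mouse 1 among genes under 0.5 FPKM. That ratio was shared by 21 to 120 genes per library. By this estimate, depth relative to ND mouse 1 ranged over 1.13 to 1.49 in the HFrD libraries and over 0.991 to 1.17 in the ND libraries. HFrD mouse 1 and ND mouse 7 fitted their own diet least, with array weights of 0.713 and 0.787 where 1 is average, and results that rest on them are given with and without them.

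Of the 61 genes, 1 changed between the diets. Dnaja1, a cytosolic J protein that serves the Hsp70 protein Hspa8, fell, and 0 genes rose. Differences were tested with limma on log2(FPKM + 1) over the 11476 genes that averaged 0.5 FPKM or more, and genes at a Benjamini-Hochberg adjusted p under 0.05 over all of these were counted as changed. By that test 9.12% of all genes changed, 5.44% being higher and 3.69% lower in HFrD. At an unadjusted p under 0.05 the count was 13 of 61, or 21.3%, where 25.5% of all genes reached it. The 4 HFrD values lay apart from the 4 ND values in 7 of 61 (11.5%), where 16.6% of all genes did so. These 7 were Dnajc22, Dnajc19 and Dnajb2 on the higher side and Dnaja1, Dnajb6, Dnajb14 and Dnaja3 on the lower side. The median log2 difference was -0.06 over the 61 genes and 0.01 over all genes tested. The median of the 61 varied with the mouse left out but stayed negative. Leaving out HFrD mouse 1, 2 or 5 gave -0.10, -0.03 and -0.01, and leaving out ND mouse 3 gave -0.02. Leaving out HFrD mouse 7 gave -0.08, and leaving out ND mouse 1, 6 or 7 gave -0.07, -0.05 and -0.07. The differences were negative in 38 genes and positive in 23, and they lay within 0.5 of 0 in 58.

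**Figure D1:**
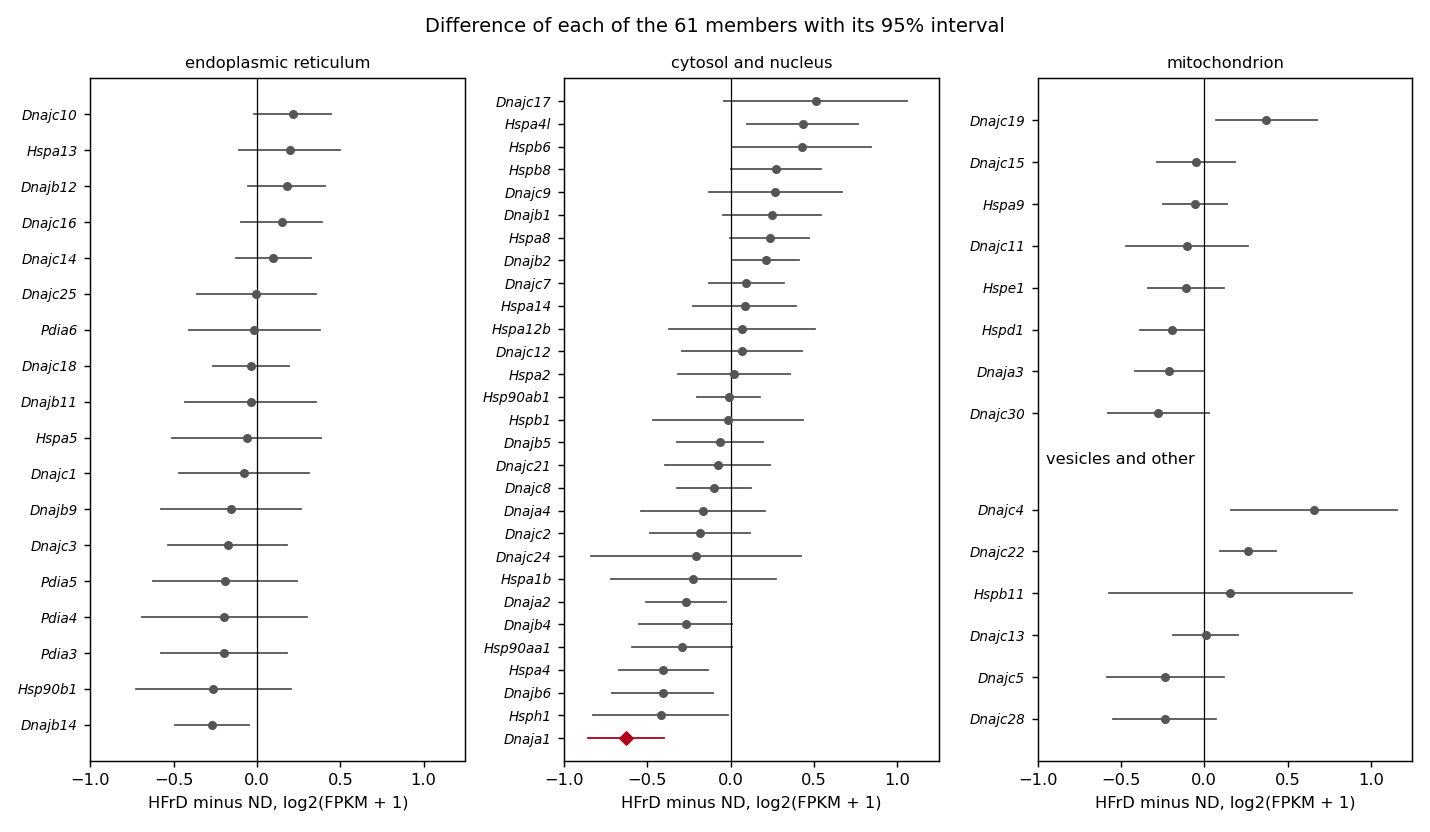
Difference in log2(FPKM + 1), HFrD minus ND, of the 61 genes by compartment (points), with 95% intervals from limma (lines), 4 mice per diet. The red diamond marks Dnaja1, which is the gene that passed the test, and the intervals extend up to 0.73 to each side of their points.

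Transcripts of the set took 0.581 to 0.799% of all FPKM in HFrD and 0.638 to 0.726% in ND mice. The 10 most abundant genes held 72.9% of the set's FPKM, and 5 of them act in the ER. The order of their mean levels over the 8 mice was Hsp90b1 (463 FPKM), Hspa5 (408 FPKM), Hspa8 (290.1 FPKM), Hsp90ab1 (275 FPKM), Hspd1 (183 FPKM), Hspe1 (173 FPKM), Pdia3 (164 FPKM), Hspa9 (150.2 FPKM), Pdia4 (145 FPKM) and Pdia6 (144 FPKM). Between mice, Hsp90b1 and Hspa5 exchanged places, since Hspa5 was the higher of the pair in HFrD mouse 2 (357 against 332 FPKM).

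The ER genes showed no difference that passed the test, and HFrD mouse 1 set much of their spread. Limma called 0 of 18, and 1 (Dnajb14) had an unadjusted p under 0.05 (5.56%, against 25.5% of all genes tested). Their median residual SD was 0.28 on the log2 scale, against 0.19 over all genes tested, 0.20 in the cytosolic and 0.15 in the mitochondrial genes. Without HFrD mouse 1 it was 0.19 in the ER genes and 0.18 over all genes tested, and without both HFrD mouse 1 and ND mouse 7 it was 0.17 in each. In the main fit the median was 0.30 in the 7 ER genes above 40 FPKM on average and 0.14 in the other 11. Of these 11, Pdia5 (0.33), Dnajb9 (0.32), Dnajc1 (0.29) and Dnajc25 (0.26) also had a wide spread. Summed over the 18 genes, HFrD mice 1, 2, 5 and 7 had 2140.0, 1235, 1171 and 1498 FPKM, and ND mice 1, 3, 6 and 7 had 1499, 1608, 1489 and 1921 FPKM. HFrD mouse 1 was the highest and HFrD mice 2 and 5 the lowest of all 8, and the diets overlapped.

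Hspa5 (ENSMUSG00000026864, chr2:34771970-34777547, plus strand, GENCODE M21 on GRCm38) encodes BiP, the Hsp70 protein of the ER. It had 606, 357, 315 and 339 FPKM in HFrD mice 1, 2, 5 and 7, against 417, 396, 334 and 500.3 FPKM in ND mice 1, 3, 6 and 7. HFrD mouse 1 stood above every other mouse, and the other HFrD mice lay within or below the range of ND. Its difference was -0.06 (95% interval -0.51 to 0.38, limma adjusted p = 0.879). Hsp90b1 (ENSMUSG00000020048, chr10:86690209-86705509, minus strand), the Hsp90 protein of the ER, had 607, 332, 319 and 445 FPKM in the HFrD mice and 422, 494, 440.1 and 646 FPKM in the ND mice. Here ND mouse 7 was the highest, HFrD mouse 1 the next, and HFrD mice 2 and 5 the lowest. The difference was -0.26 (95% interval -0.73 to 0.20, limma adjusted p = 0.469).

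In the disulfide isomerases HFrD mouse 1 was again high and HFrD mice 2 and 5 low. Pdia3, which works on glycoproteins bound to calnexin and calreticulin, had 210.1, 118, 122 and 169 FPKM in HFrD mice 1, 2, 5 and 7, against 160.4, 172, 173 and 186 FPKM in ND mice 1, 3, 6 and 7. Pdia4 had 216, 103, 96.8 and 137 FPKM in the HFrD mice and 136, 143, 146 and 181 FPKM in the ND mice. Pdia6, an isomerase that binds BiP, had 198, 112, 109.6 and 162 FPKM in the HFrD mice and 132, 138, 143 and 157 FPKM in the ND mice. In each of the 3 genes HFrD mouse 1 was the highest of all, HFrD mice 2 and 5 were the lowest, and the diets overlapped. Pdia5 was lower, at 13.0 to 24.8 FPKM in HFrD and 18.5 to 25.6 FPKM in ND mice. The 4 isomerases had log2 differences of -0.20 to -0.02, and their intervals together ran from -0.69 to 0.38.

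The J proteins of the ER divided by abundance. Dnajc3, which inhibits the stress kinase Eif2ak3 (PERK), had 86.4, 51.5, 51.5 and 63.4 FPKM in the HFrD mice and 62.4, 74.2, 65.8 and 78.7 FPKM in the ND mice. Dnajb11, a soluble J protein that brings clients to BiP, had 62.1, 35.5, 36.1 and 48.4 FPKM in the HFrD mice and 41.1, 47.3, 41.0 and 54.3 FPKM in the ND mice. In both, HFrD mouse 1 was the highest of all and HFrD mice 2 and 5 the lowest. Dnajb9, which acts in ER-associated degradation and represses the stress sensor Ern1, did not: it had 23.3 to 26.6 FPKM in HFrD mice, against 29.1, 25.5, 40.8 and 18.8 FPKM in ND mice 1, 3, 6 and 7. Its highest and its lowest value were both in ND. Dnajb14, a J protein of the ER membrane that faces the cytosol, had 3.88, 3.56, 3.27 and 3.81 FPKM in the HFrD mice and 4.62, 4.98, 4.35 and 4.36 FPKM in the ND mice. Its groups did not overlap, and the difference of -0.27 did not pass (limma adjusted p = 0.119). Dnajc10, a reductase that opens disulfides before degradation, had the highest difference of the ER genes at 0.21 (95% interval -0.02 to 0.45). The other 7 (Dnajb12, Hspa13, Dnajc1, Dnajc25, Dnajc14, Dnajc16 and Dnajc18) had means of 1.74 to 20.8 FPKM and differences of -0.08 to 0.20.

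**Figure D2:**
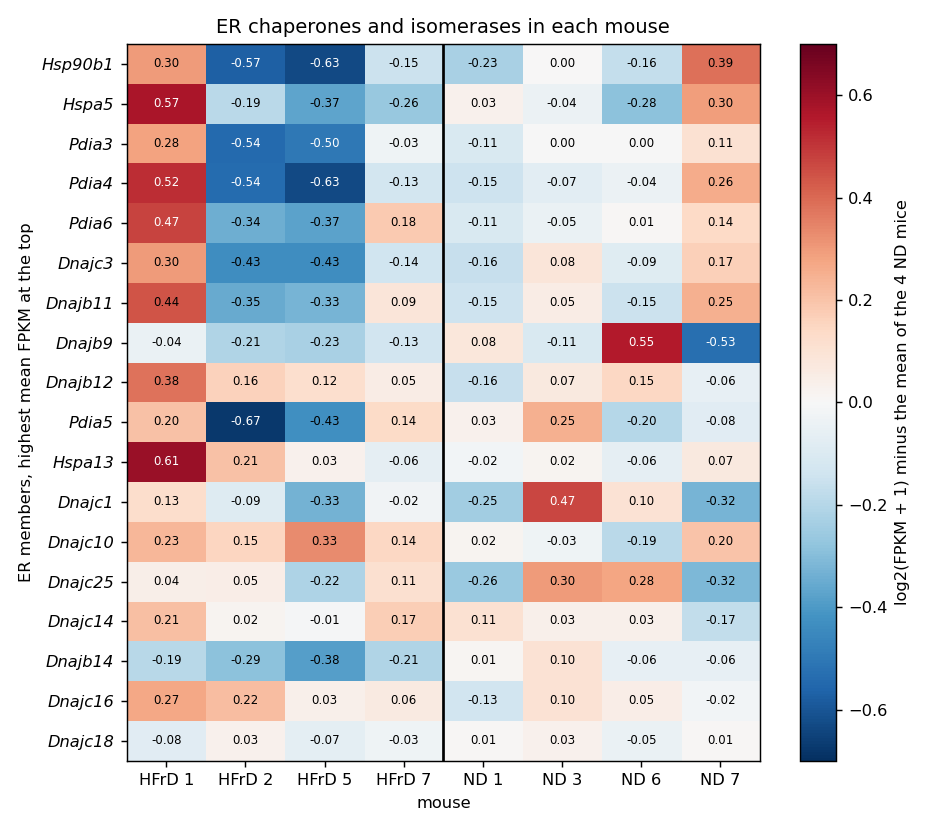
The 18 ER genes (rows, by mean FPKM) in each of the 8 mice (columns), as log2(FPKM + 1) minus the mean of the 4 ND mice. HFrD mouse 1 is positive and HFrD mice 2 and 5 are negative in each of the 7 topmost rows, where ND mouse 7 is the highest of its diet.

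The 7 ER genes above 40 FPKM on average (Hsp90b1, Hspa5, Pdia3, Pdia4, Pdia6, Dnajc3 and Dnajb11) were grouped after their values had been seen. In 7 of 7 HFrD mouse 1 was the highest and mouse 2 or 5 the lowest of its diet, and ND mouse 7 was the highest of ND. Over all genes tested, HFrD mice 2 and 5 were the lowest of their diet in 24.7% and 32.3%. ND mouse 7 was the highest of its diet in 19.8%. Relative to the ND mean, the median log2 deviation of the 7 genes was 0.44 in HFrD mouse 1, -0.43 in HFrD mice 2 and 5, -0.13 in HFrD mouse 7, and 0.25 in ND mouse 7. Over the 18 ER genes HFrD mouse 1 was the highest of its diet in 15 (83.3%) and the highest of all 8 mice in 10 (55.6%), where over all genes tested these shares were 38.8% and 16.5%. The 7 genes share libraries, so they do not count as 7 separate observations of a mouse. Without HFrD mouse 1, limma still called 0 of the 18 genes, and 5 had an unadjusted p under 0.05. The differences of Hsp90b1 and Pdia4 were then -0.45 and -0.43 (limma adjusted p = 0.124 and 0.082), and that of Hspa5 was -0.27 (adjusted p = 0.212). Without ND mouse 7, Hspa5 had a difference of 0.03 and Hsp90b1 of -0.13 (limma adjusted p = 0.934 and 0.731), again with 0 of 18 called.

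HFrD mouse 1 was also high in other genes of ER folding. Of 35 tested on a list of lectin chaperones, oxidases, cofactors and glycan enzymes, HFrD mouse 1 was the highest of its diet in 25 (71.4%). Over all genes tested it was so in 38.8%. The summed list had 2613 FPKM in HFrD mouse 1, and 1849, 1843 and 2189 FPKM in HFrD mice 2, 5 and 7, while ND mice had 2049 to 2236 FPKM. HFrD mouse 7 lay inside the range of ND. Hyou1, Sdf2l1, Creld2 and Manf, which were picked after their values were seen, are ER stress genes of that list. Hyou1, the exchange factor of BiP, had 127, 65.0, 63.1 and 71.5 FPKM in HFrD mice 1, 2, 5 and 7, against 78.0, 99.1, 66.1 and 119.7 FPKM in ND mice 1, 3, 6 and 7. Sdf2l1, Creld2 and Manf had 52.6, 53.3 and 191 FPKM in HFrD mouse 1, at most 29.3, 21.6 and 125 FPKM in the other HFrD mice, 51.3, 40.4 and 156 FPKM in ND mouse 7, and at most 32.8, 27.9 and 104 FPKM in the other ND mice. Of this list 5.71% changed, where 9.12% of all genes tested did. On it 1 gene rose, Sdf2 (0.45, limma adjusted p = 0.0228), and 1 fell, Pdilt, an isomerase relative best known from testis (-1.04, adjusted p = 0.0122). Pdilt passed whichever mouse was left out, and Sdf2 did not pass without HFrD mouse 7, ND mouse 3 or ND mouse 6 (limma adjusted p = 0.0598 to 0.0627).

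Of the 14 regulators of the unfolded protein response, 1 changed (7.14%, against 9.12% of all genes tested). Xbp1, the transcription factor that drives ER chaperone genes once its mRNA is spliced by Ern1, had 82.6, 58.3, 45.0 and 61.2 FPKM in HFrD mice 1, 2, 5 and 7, against 107.1, 118, 92.7 and 85.5 FPKM in ND mice 1, 3, 6 and 7. It fell by 0.72 on the log2 scale without overlap (SE 0.17, limma adjusted p = 0.0284), and HFrD mouse 1 was again the highest of its diet. The call held when HFrD mouse 1 or ND mouse 7 was left out, but not when any of the other 6 mice was left out, where the differences were -0.76 to -0.58 (limma adjusted p = 0.0528 to 0.0816). It was also lost without a filter on low values (adjusted p = 0.0608). The FPKM of a gene does not separate spliced from unspliced Xbp1. Atf4, the factor of the translational branch, had 38.7, 41.2, 50.9 and 33.9 FPKM in the HFrD mice and 38.5, 33.7, 45.2 and 53.8 FPKM in the ND mice, so that the diets overlapped.

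Promoters were read from RefSeq windows of 250 bases before to 50 after the start of a gene (GRCm38.p6), which 49 of the 61 genes have. The ER stress response element was searched as CCAAT and CCACG with 9 bases between them, on both strands. It was found in 4 of 16 ER genes (25%), in 0 of the other 33 genes, and in 0.137% of 27025 genes with a window. The 4 genes were Hspa5, Hsp90b1, Pdia6 and Dnajc3, each of which belongs to the 7 abundant ER genes above. Their elements are shown with 10 flanking bases on each side, because Hspa5 and Hsp90b1 are the most abundant genes of the set. They are written 5′ to 3′ on the strand of the gene with the element in capitals, and they lie at chr2:34772015-34772053 (plus strand), chr12:17266481-17266519 (plus strand), chr14:118937817-118937855 (plus strand) and chr10:86705523-86705666 (minus strand).
Hspa5: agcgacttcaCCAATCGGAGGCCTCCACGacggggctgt
Pdia6: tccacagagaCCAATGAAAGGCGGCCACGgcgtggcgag
Dnajc3: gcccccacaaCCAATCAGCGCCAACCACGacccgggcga
Hsp90b1: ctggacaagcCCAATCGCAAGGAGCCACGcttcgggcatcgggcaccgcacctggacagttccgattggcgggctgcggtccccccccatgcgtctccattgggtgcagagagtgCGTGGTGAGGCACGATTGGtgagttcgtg

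The elements began 65, 98 and 105 bases before the RefSeq start in Hspa5, Pdia6 and Dnajc3. In Hsp90b1 one began 212 bases before it, and the other, on the opposite strand, 107 bases before it. For Hspa5 the GENCODE gene begins further upstream, and the element lies inside it. A match of letters is a description and not a measured binding site.

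In the cytosol and nucleus, the gene with the largest difference was a class A J protein. Limma called 1 of the 29 genes, Dnaja1, and 8 had an unadjusted p under 0.05 (27.6%, against 25.5% of all genes tested). Dnaja1 (ENSMUSG00000028410, chr4:40722150-40737149, plus strand) had 58.3, 52.3, 60.0 and 60.0 FPKM in HFrD mice 1, 2, 5 and 7, against 82.7, 108.0, 88.1 and 81.2 FPKM in ND mice 1, 3, 6 and 7. Every HFrD mouse was below every ND mouse, and ND mouse 3 was the highest. The means were 57.6 ± 3.62 FPKM in HFrD and 90.0 ± 12.4 FPKM in ND (SD, n = 4 each), a ratio of 0.640. Dnaja1 fell by 0.63 on the log2 scale (SE 0.10, 95% interval -0.86 to -0.40, limma adjusted p = 0.00675). Across the 70 divisions of the mice, an exact permutation test (two-sided) gave p = 0.0286, the smallest it allows. The difference was between -0.68 and -0.46 under each of the 18 other settings tried, and it passed in 17 of them. The exception took the mouse number as a block and gave -0.46 (limma adjusted p = 0.210). In that fit only mice 1 and 7 of each diet bore on the difference.

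Dnaja1 overlaps Smu1, a splicing gene on the opposite strand, and the table gives both one locus. Whether strand was used in the counting is not given in the sources used here, and without it reads of the shared stretch cannot be assigned to either gene. Smu1 had 20.2, 19.3, 19.6 and 18.0 FPKM in the HFrD mice and 22.2, 28.4, 27.0 and 21.1 FPKM in the ND mice. Its groups did not overlap either, and the difference of -0.33 did not pass (limma adjusted p = 0.0844). It passed without ND mouse 7 (-0.40, adjusted p = 0.0493) and with the medians of the libraries made equal (-0.35, adjusted p = 0.0474).

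Dnaja2, the class A J protein closest to Dnaja1 in function, had 28.7, 26.3, 27.4 and 27.8 FPKM in the HFrD mice and 33.7, 36.9, 37.0 and 26.8 FPKM in the ND mice. ND mouse 7 lay among the HFrD mice, and the difference was -0.27 (95% interval -0.51 to -0.03, limma adjusted p = 0.153). Without ND mouse 7 it was -0.37 (adjusted p = 0.0287). Dnaja4 was low, with 1.20 to 1.74 FPKM in HFrD and 1.09 to 2.34 FPKM in ND mice. Summed over the 3 class A genes, the HFrD mice had 80.3 to 89.1 FPKM and the ND mice 110.4 to 147 FPKM, a description in which Dnaja1 has the largest share.

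**Figure D3:**
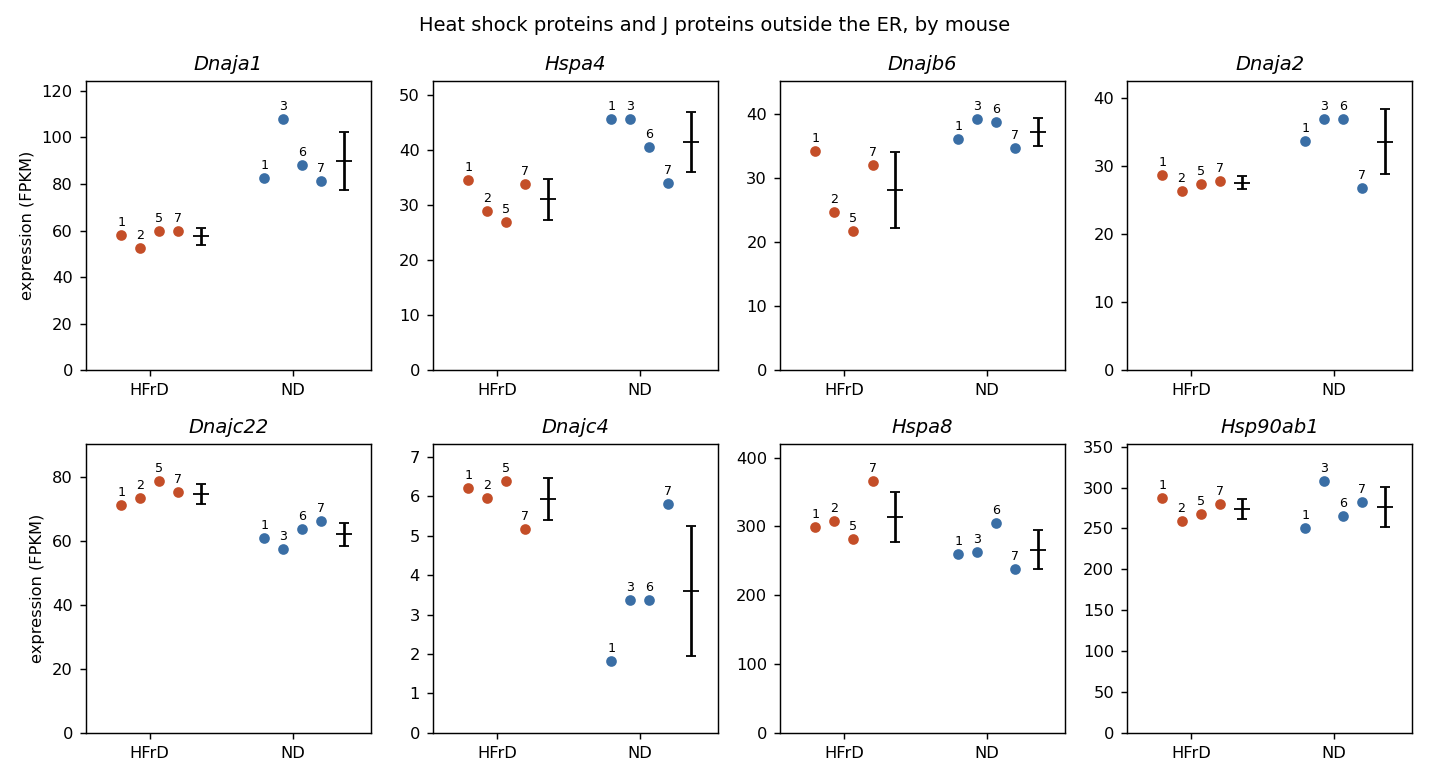
FPKM of 8 genes of the cytosol and vesicles in HFrD (left) and ND mice (right); numbers beside points are mouse numbers, and black bars are means with SD (n = 4 mice each). The 4 HFrD points of Dnaja1, at 52.3 to 60.0 FPKM, sit below the 4 ND points, and those of Dnajc22, at 71.2 to 78.6 FPKM, sit above.

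The 3 Hsp110 proteins, exchange factors for cytosolic Hsp70, did not share a direction. Hspa4 had 34.5, 28.9, 26.9 and 33.7 FPKM in HFrD mice 1, 2, 5 and 7, against 45.7, 45.6, 40.6 and 34.0 FPKM in ND mice 1, 3, 6 and 7. Only ND mouse 7 fell inside the HFrD range, at the level of HFrD mice 1 and 7, and the difference was -0.41 (95% interval -0.67 to -0.14, limma adjusted p = 0.0627). It passed without ND mouse 7 (-0.49, adjusted p = 0.0292) and without HFrD mouse 1 (-0.46, adjusted p = 0.0484). Hsph1 had 8.44, 7.24, 7.88 and 9.54 FPKM in the HFrD mice and 11.4, 16.8, 8.14 and 10.6 FPKM in the ND mice, with a difference of -0.42 (limma adjusted p = 0.180). Hspa4l had 11.1, 14.0, 16.4 and 11.6 FPKM in the HFrD mice and 9.92, 11.5, 7.47 and 9.41 FPKM in the ND mice, with a difference of 0.43 (limma adjusted p = 0.0996). Hsph1 and Hspa4l overlapped between the diets as well.

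Of the Hsp70 and Hsp90 genes of the cytosol none passed the test. Limma called 0 of the 7, and 0 had an unadjusted p under 0.05. Hspa8, the constitutive Hsp70, had 299.7, 308, 282 and 365 FPKM in the HFrD mice and 259, 263, 305 and 238 FPKM in the ND mice. HFrD mouse 7 was the highest and ND mouse 6 lay among the HFrD mice. The difference of Hspa8 was 0.24 (95% interval -0.00 to 0.47, limma adjusted p = 0.199). Hsp90ab1, the constitutive Hsp90, was among the narrowest intervals of the abundant genes. It had 287, 259.6, 268 and 280.4 FPKM in the HFrD mice and 251, 307, 265 and 283 FPKM in the ND mice, with a difference of -0.01 (95% interval -0.20 to 0.18). Hsp90aa1, the inducible form, had 73.9, 61.1, 62.8 and 85.7 FPKM in the HFrD mice and 75.0, 105.9, 87.5 and 79.5 FPKM in the ND mice, with a difference of -0.29 (95% interval -0.59 to 0.01).

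Inducible and small heat shock proteins differed widely in level. Hspa1b, an inducible Hsp70, had 0.888, 0.472, 0.794 and 1.43 FPKM in the HFrD mice and 1.00, 1.22, 2.18 and 0.599 FPKM in the ND mice, and its near-identical copy Hspa1a averaged 0.140 FPKM over all mice, a split that is uncertain between copies. Dnajb1, the inducible J protein, had 4.77 to 6.39 FPKM in HFrD and 3.53 to 5.29 FPKM in ND mice. Hspb1 had 4.22 to 6.80 FPKM in HFrD and 3.95 to 8.22 FPKM in ND mice. Hspb6 had 2.86 to 4.28 FPKM in HFrD and 1.28 to 3.17 FPKM in ND mice. Its difference of 0.43 (95% interval 0.02 to 0.84) did not pass (limma adjusted p = 0.180). Hspb8, a small heat shock protein that acts with Bag3 in autophagy, was the most abundant of its kind. It had 74.4, 68.4, 51.7 and 69.5 FPKM in the HFrD mice and 51.9, 62.3, 53.0 and 49.7 FPKM in the ND mice, where HFrD mouse 5 lay inside the range of ND, and the difference was 0.27 (95% interval -0.00 to 0.54). The values overlapped between diets in all of these genes. Hsf1, the regulator of heat shock genes, averaged 2.82 ± 0.447 FPKM in HFrD and 2.89 ± 0.834 FPKM in ND (SD, n = 4 each), with a difference of -0.01 (95% interval -0.39 to 0.37).

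Among the class B J proteins, Dnajb6, which keeps polyglutamine proteins from aggregating, had 34.2, 24.6, 21.8 and 32.0 FPKM in HFrD mice 1, 2, 5 and 7, against 36.0, 39.2, 38.7 and 34.7 FPKM in ND mice 1, 3, 6 and 7. The groups did not overlap, but HFrD mouse 1 lay just below ND mouse 7. The difference of -0.41 did not pass (limma adjusted p = 0.0915), and it passed without HFrD mouse 1 (-0.51, adjusted p = 0.0351). Dnajb2 had 12.2, 11.0, 12.3 and 11.0 FPKM in the HFrD mice and 9.52, 10.5, 9.25 and 10.3 FPKM in the ND mice, again without overlap, with a difference of 0.21 (limma adjusted p = 0.171). Dnajc17, a J protein of the splicing machinery, had the highest difference of the 29 genes, 0.51, at the low level of 1.06 to 2.67 FPKM in HFrD and 0.285 to 1.33 FPKM in ND mice (limma adjusted p = 0.232).

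The heat shock element was searched in the same windows as a pair of units, GAANNTTC or TTCNNGAA. It was found in 9 of 24 cytosolic and nuclear genes (37.5%), 2 of 5 mitochondrial genes, 1 of 16 ER genes (Dnajc10) and 0 of 4 others, and in 17% of all genes with a window. The 9 were Dnaja1, Dnaja4, Dnajb4, Dnajb6, Hspa1b, Hspb1, Hspb6, Hspb8 and Hsph1. Overlapping pairs, which make a run of at least 3 alternating units, occurred in Dnajb6, Hsph1, Hspd1 and Hspe1 (8.16% of 49 genes, against 0.662% of all). Dnaja1 and Hspa1b had the pair without such a run. Elements are shown for the gene that changed, for the cytosolic J protein with the nearest separation of the diets, for the inducible Hsp70 and for the shared mitochondrial pair. They are written on the strand of the gene with the element in capitals, at chr4:40722334-40722361 (plus strand), chr5:29735842-29735874 (plus strand), chr17:34959325-34959352 (minus strand) and chr1:55088049-55088086 (plus strand).
Dnaja1: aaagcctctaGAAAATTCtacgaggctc
Dnajb6: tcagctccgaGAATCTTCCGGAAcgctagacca
Hspa1b: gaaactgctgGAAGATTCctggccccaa
Hspe1: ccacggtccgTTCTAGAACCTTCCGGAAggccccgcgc

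The element of Dnaja1 began 124 bases before the RefSeq start, inside the GENCODE gene, and that of Hspa1b 104 bases before it. The Hspe1 stretch is also that of Hspd1, read on the other strand, since these genes are transcribed away from each other from one region. Dnajc22, Dnajc11, Dnajc18, Hsp90aa1, Dnajc12, Dnajc2, Hsp90ab1, Hspa9, Dnajc5, Hspa13, Hspa8 and Dnajc30 had no window.

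In the mitochondrion limma called 0 of 8 genes. Dnaja3 and Dnajc19 (2 of 8, or 25%) had an unadjusted p under 0.05, where 25.5% of all genes tested did. Hspd1, the Hsp60 chaperonin, had 180.2, 164, 160.4 and 179.6 FPKM in HFrD mice 1, 2, 5 and 7, against 197, 213, 198 and 174 FPKM in ND mice 1, 3, 6 and 7. ND mouse 7 lay inside the HFrD range, and the difference was -0.19 (95% interval -0.38 to 0.00, limma adjusted p = 0.197). Hspe1, its Hsp10 lid, had 165, 160.4, 166 and 172 FPKM in the HFrD mice and 161, 215, 186 and 159 FPKM in the ND mice, with a difference of -0.11 (95% interval -0.34 to 0.12). The first exons of the pair overlap on opposite strands. Hspa9, the mitochondrial Hsp70 that pulls proteins through the inner membrane, had 137 to 155 FPKM in HFrD and 136 to 165 FPKM in ND mice, with a difference of -0.06 (95% interval -0.25 to 0.13).

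The J proteins of Hspa9 differed in direction. Dnaja3 had 32.5, 35.1, 32.0 and 28.7 FPKM in the HFrD mice and 36.5, 42.0, 35.8 and 35.2 FPKM in the ND mice. The groups did not overlap, with HFrD mouse 2 just below ND mouse 7, and the difference of -0.21 did not pass (limma adjusted p = 0.175). Dnajc19, a J protein of the import motor, had 14.0, 11.8, 12.1 and 15.4 FPKM in the HFrD mice and 10.1, 11.1, 11.6 and 7.67 FPKM in the ND mice. It also lay apart, on the higher side, with a difference of 0.37 (limma adjusted p = 0.118). Its relative Dnajc15 had a difference of -0.05 (95% interval -0.28 to 0.18). Dnajc30 had the lowest difference of the mitochondrial genes at -0.28 (95% interval -0.58 to 0.03).

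Among the 6 genes of vesicles or other sites limma called 0. Dnajc22 and Dnajc4 (2 of 6, or 33.3%) had an unadjusted p under 0.05, where 25.5% of all genes tested did. Dnajc22 (ENSMUSG00000038009, chr15:99093170-99104737, plus strand) is a membrane J protein whose Drosophila relative acts in clathrin-mediated endocytosis. It had 71.2, 73.5, 78.6 and 75.3 FPKM in HFrD mice 1, 2, 5 and 7, against 60.9, 57.5, 63.7 and 66.1 FPKM in ND mice 1, 3, 6 and 7. Every HFrD mouse was above every ND mouse. The difference was 0.26 (SE 0.08, 95% interval 0.09 to 0.43, limma adjusted p = 0.0583), just outside the threshold. It passed without a filter on low values (adjusted p = 0.0469), with array weights (adjusted p = 0.0387) and after quantile normalization (adjusted p = 0.0494). Dnajc4, a J protein with little known of its function, had 6.21, 5.94, 6.38 and 5.17 FPKM in the HFrD mice and 1.81, 3.37, 3.38 and 5.81 FPKM in the ND mice. The level of ND mouse 7 lay inside the HFrD range. The difference was 0.66, the highest of the 61 genes (95% interval 0.16 to 1.16, limma adjusted p = 0.0955), and it was 0.87 without ND mouse 7 (adjusted p = 0.0198).

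The remaining 4 were Dnajc13, Hspb11, Dnajc5 and Dnajc28. Dnajc13, an endosomal J protein, had the narrowest range of all 4, with 8.73 to 9.80 FPKM in HFrD and 9.01 to 10.0 FPKM in ND mice, and a difference of 0.01 (95% interval -0.19 to 0.20). Hspb11, a subunit of intraflagellar transport named as a small heat shock protein, varied most, with 4.87 to 9.03 FPKM in HFrD and 3.16 to 10.6 FPKM in ND mice. Dnajc5, the cysteine string protein of secretory vesicles, and Dnajc28 had differences of -0.23 and -0.24 with intervals that reached above 0.

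**Figure D4:**
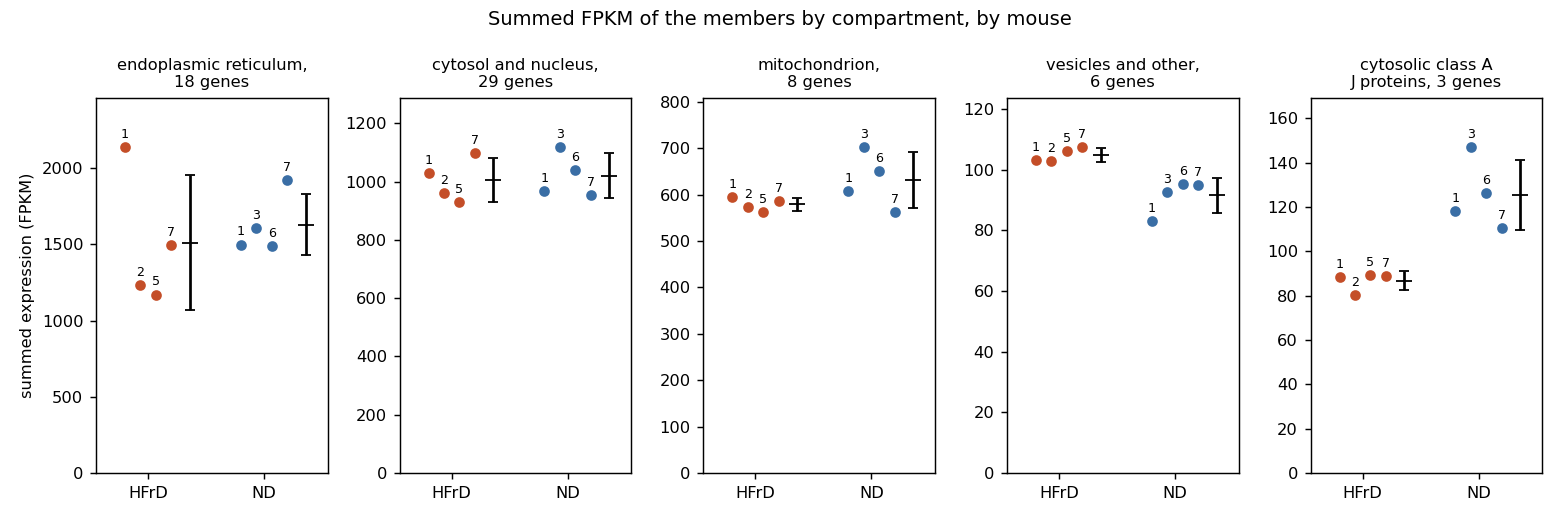
Summed FPKM of the genes of each compartment, and of the 3 cytosolic class A J proteins, in HFrD (left in each panel) and ND mice (right); numbers are mouse numbers, and black bars are means with SD (n = 4 mice each). The ER sums overlap, with HFrD mice at 1171 to 2140 FPKM and ND mice at 1489 to 1921 FPKM, whereas the class A sums lie at 80.3 to 89.1 FPKM and 110 to 147 FPKM.

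By compartment, the sums were thus widest in the ER, with 1511 ± 443 FPKM in HFrD and 1629 ± 202 FPKM in ND (SD, n = 4 each). The 29 cytosolic and nuclear genes summed to 1005 ± 75.3 FPKM in HFrD and 1020 ± 76.7 FPKM in ND. The 8 mitochondrial genes summed to 579 ± 14.0 FPKM in HFrD and 631 ± 60.4 FPKM in ND, with ND mouse 7 the lowest of all. The 6 others summed to 103 to 108 FPKM in HFrD and 83.2 to 95.3 FPKM in ND, of which Dnajc22 made up the most.

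Other genes of the folding network were counted in the same fit. Over all genes tested, 9.12% changed and 25.5% had an unadjusted p under 0.05. Of 30 heat shock factors and co-factors of Hsp70 and Hsp90, 2 rose and 1 fell, with a median log2 difference of 0.01. Hspbp1, an exchange factor that releases nucleotide from Hsp70, had 4.23, 4.45, 4.24 and 3.42 FPKM in the HFrD mice and 2.75, 2.58, 2.84 and 3.04 FPKM in the ND mice, and it rose by 0.42 (limma adjusted p = 0.0415). Unc45a, an Hsp90 co-chaperone of myosin folding, rose by 0.44 (limma adjusted p = 0.0268). Ppid, a peptidyl-prolyl isomerase bound to Hsp90, had 17.9, 17.2, 15.9 and 20.0 FPKM in the HFrD mice and 27.5, 25.7, 22.1 and 24.9 FPKM in the ND mice, and it fell by 0.47 (limma adjusted p = 0.0187). The groups of these 3 genes did not overlap, but the calls lay near the threshold. With 1 mouse left out at a time, Ppid passed in 4 of 8 fits, Unc45a in 2 (without HFrD mouse 1 or 7) and Hspbp1 in 1 (without HFrD mouse 7), at limma adjusted p of 0.0223 to 0.0574, 0.0455 to 0.0777 and 0.0432 to 0.112. The call of Hspbp1 was also lost without a filter and under each of the 3 other scalings (limma adjusted p = 0.0519 to 0.0729). Limma called 0 of 13 subunits of the TRiC chaperonin and prefoldin and 0 of 15 other mitochondrial chaperones and proteases, with 3 and 2 at an unadjusted p under 0.05. It called 0 of 14 immediate early genes, with 3 at an unadjusted p under 0.05, and 1 of 15 clock genes, with 6 at an unadjusted p under 0.05 (40%, against 25.5% of all genes). The 1 was Arntl, which rose by 0.73 (limma adjusted p = 0.0499). It passed in 2 of 8 fits with 1 mouse left out, and it was lost without a filter and under each of the 3 other scalings (adjusted p = 0.0547 to 0.106). Per1 had the highest difference of the clock genes at 1.04 and Tef the lowest at -0.51, and neither passed (limma adjusted p = 0.0724 and 0.0706). The hours at which the livers were taken are not given in the sources used here, and the part of the clock in these values was not tested.

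Of the 17 genes below the minimum, 6 were listed at 0 in every library (Pdia2, Hspb9, Dnajb8, Hspb3, Dnajc5b and Dnajc5g). Nearest the limit were Hspa12a at 0.479 FPKM outside it, and Hspa2 at 0.706 and Hspa12b at 0.717 FPKM inside it. Of the 61 genes, 22 share the locus given in the table with another gene and 19 overlap another protein-coding gene, so that their values are uncertain to that extent. Hsp90, Hspa8, Hspd1 and Hspe1 have processed pseudogenes in the genome, and how reads that match several places were counted is not given in the sources used here.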

How the data were processed

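RNA-Seq of liver from 8 mice (1 library each) was deposited by the authors as 1 table of FPKM for 22564 genes. Per the submitters' notes, Cutadapt 1.9.3, HISAT2 2.0.4 on mm10, Cufflinks and Cuffdiff were used. The paper names NEBNext directional and the labels TruSeq stranded libraries, and strand use in counting is not given in the sources used here.

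After a log2(FPKM + 1) transform, the 11476 genes averaging 0.5 or more were fitted with limma 3.58.1 (R 4.3.3, eBayes with a variance trend), with diet as the only term. Benjamini-Hochberg adjustment of p values ran over all 11476. On the log2(FPKM + 1) scale, changes of low genes are understated. Exact permutation tests used all 70 divisions of the mice. Sums and orders of mice are descriptions. Positions are from GENCODE M21 (GRCm38), and all 61 genes were found there. Tables and plots used matplotlib 3.10.9, numpy 2.4.6 and pandas 2.3.3 in Python 3.11.15.

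Described genes are those called, the 3 most abundant and the most positive and most negative difference of each compartment, those without overlap and those nearest the minimum, plus others that were described after their values were seen. The members, compartments and lists were chosen with earlier results of these data known. Protein sequences were not analysed here. Of the values tabulated, 0 columns were left unmapped to a mouse. The other settings tried were each mouse left out, a block for the mouse number, no variance trend, array weights, 3 other scalings, a pseudocount of 0.1, a minimum of 1 FPKM and no filter. After seeing the data, a fit that leaves out both HFrD mouse 1 and ND mouse 7 was added.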

Additional observations from a re-analysis of the deposited data

Results flagged for a closer look

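A mouse far from the others of its diet was looked for in 150 groups of 4 mice (the genes described above and their sums), by the gap to the nearest other mouse over the whole range of the diet, a measure that chance takes past its limit in about 1 of 20 groups. Of the 150 groups, 2 were flagged, a smaller share than 1 of 20. Hspa5 had 606 FPKM in HFrD mouse 1, where the other HFrD mice had 315 to 357 FPKM. Dnajc13 had 10.0 FPKM in ND mouse 3, where the other ND mice had 9.01 to 9.10 FPKM.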

How the results depend on the processing

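Of 61 genes, 1 changed with a pseudocount of 0.1, a minimum of 1 FPKM or no variance trend. The count was 2 without a filter (Dnaja1 and Dnajc22, 1 higher, 1 in the vesicle group), 3 after quantile normalization and with array weights (Dnaja1, Hspa4 and Dnajc22, with 1 higher, 2 lower, 2 cytosolic, 1 vesicular), and 2 with equal medians or rescaled without Mup and mitochondrial genes (Dnaja1 and Hspa4, 2 lower, both cytosolic). With 1 mouse left out it was 1 to 4 (0 to 1 higher, 1 to 3 lower, 1 to 3 cytosolic, 0 to 1 vesicular), and it was 3 without HFrD mouse 1 and 4 without ND mouse 7. Without both, a fit chosen after seeing the data, 6 changed (Dnaja1, Dnaja2, Dnajb6, Dnajc22, Dnajc4 and Hspa4, 2 higher, 4 lower, 4 cytosolic, 2 vesicular). The ER and mitochondrial counts were 0 in every fit. Over all genes tested, the count of 1047 (624 higher, 423 lower) was 538 to 1296 (340 to 661 higher, 184 to 635 lower) with 1 mouse left out, and 696 were lower without both mice. The causes were not tested.

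The mouse numbers 1 and 7 occur in both diets, and the deviations of the mice that share them correlated at 0.0774 and -0.0137, so the number was not taken as a pairing. With it as a replicate block, the differences came from the mice numbered 1 and 7 alone, as each other number occurs in only 1 diet. That left little to estimate the spread from. In this fit 2 of all genes changed (2 higher, 0 lower), and 0 of the 61 (0 lower, 0 cytosolic). The median difference of the 61 was then 0.12, against -0.06 without the block. Without both HFrD mouse 1 and ND mouse 7, and with no block, the median was -0.13. Under that block the differences turned round to 0.0907 in Hsp90ab1, 0.0421 in Hsp90aa1, 0.0764 in Hspe1, 0.0073 in Hspa9, 0.0010 in Dnajc28, 0.0333 in Dnajc15, 0.1235 in Pdia3, 0.1363 in Pdia4 and 0.1833 in Hsf1, and to -0.1412 in Hspa2 and -0.0139 in Dnajc17. In the ER, Pdia5 (0.1942), Pdia6 (0.3085), Dnajb9 (0.1347), Dnajb11 (0.212), Dnajc1 (0.3363), Dnajc3 (0.0781) and Dnajc25 (0.3649) turned positive under the block too. Outside it, so did Hspb1 (0.2982), Hspa1b (0.2588), Dnajc2 (0.0624), Dnajc11 (0.1694), Dnajc21 (0.1372) and Dnajc24 (0.1373). No gene that had passed turned round. The signs and ranges given next cover only part of the 61 genes. Differences near 0 also changed sign elsewhere: Hsp90ab1 (0.0082) and Hspa5 (0.0173) after quantile normalization, Hspa2 after quantile normalization (-0.0887) and with equal medians (-0.0033), Dnajc13 with equal medians (-0.0157), rescaled without Mup and mitochondrial genes (-0.0236), with array weights (-0.0080) and without both mice (-0.0180), Hspb11 without both mice (-0.0808), and Hsf1 with a pseudocount of 0.1 (0.0001). With 1 mouse left out, the differences ran from -0.0128 to 0.0417 in Dnajc13, -0.0990 to 0.0396 in Dnajc15, -0.1484 to 0.1025 in Hsf1, -0.0567 to 0.0410 in Hsp90ab1, -0.0706 to 0.1337 in Hspa2, -0.2748 to 0.0392 in Hspa5 and -0.0522 to 0.4396 in Hspb11. FPKM without counts give no counting error, so the precision rests on 4 mice per diet.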
